A study of Mus musculus with 8 samples.

Results

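The genes described here were the cytosolic ribosomal protein genes of mouse photoreceptor cells, the genes for the proteins of the 40S and 60S subunits of the ribosome. They were chosen by symbol. A member was a protein-coding gene named Rpl or Rps and a number, with an optional a, x or l at the end, or Rplp0, Rplp1, Rplp2 or Rpsa. The kinases of the Rps6k family do not belong to the ribosome and were left out, as was 1 pseudogene that matched by symbol. The rule found 81 genes of 22911 named genes on the microarray, 31 of them Rps genes (with Rpsa) of the 40S subunit and 50 of them Rpl or Rplp genes of the 60S subunit. Each gene is given by the brightest of its probes.

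Photoreceptor cells were isolated with an antibody to CD73 from trypsin-dissociated retinas of C57BL/6 mice at postnatal day 8, and total RNA was hybridized to single-color Agilent SurePrint G3 arrays. There were 4 arrays labelled Lpcat1 HZ (heterozygous for the Lpcat1 deletion) and 4 labelled Lpcat1 KO, and the deletion is carried by the whole animal rather than by photoreceptor cells alone. LPCAT1 is an acyltransferase that makes phosphatidylcholine with saturated fatty acids. The study compared these groups because photoreceptor cell death begins in Lpcat1 KO mice at about this age. The labels do not say whether a sample came from a single animal, so that the spread between arrays may in part be technical. Wildtype photoreceptor cells were not analysed here, and HZ and KO below stand for arrays that carry these labels.

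A ribosome joins a small subunit, which reads the mRNA, to a large subunit, which forms the peptide bond and releases the chain through an exit tunnel. Its proteins are needed in nearly equal numbers and their mRNAs are among the most abundant of a cell. In mammals most of these mRNAs begin with a C followed by a run of pyrimidines at the 5' end, the terminal oligopyrimidine (TOP) motif, through which the kinase mTOR and the RNA-binding protein LARP1 control their translation. This control acts on translation and need not show in mRNA levels. Photoreceptor cells at this age are building their outer segments and make large amounts of membrane protein.

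RefSeq promoter sequences of the GRCm38.p6 build matched 61 of the 81 genes by symbol. The stretches of 60 bases shown here run from 40 bases before the annotated start of transcription to 20 bases from the start on, for members that the results below turn on and for the member with the longest pyrimidine run (Rpl27a). Capitals mark a run of pyrimidines that opens with a C within 5 bases of the start and goes on for at least 4 further bases. The sequences are Rps6 at chr4:86857348-86857407 (minus strand), Rps21 at chr2:180257339-180257398 (plus strand), Rps18 at chr17:33955646-33955705 (minus strand), Rpl27a at chr7:109519155-109519214 (plus strand), Rpl11 at chr4:136053374-136053433 (minus strand) and Rplp0 at chr5:115559427-115559486 (plus strand).
Rps6: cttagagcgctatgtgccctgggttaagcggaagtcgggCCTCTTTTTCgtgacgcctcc
Rps21: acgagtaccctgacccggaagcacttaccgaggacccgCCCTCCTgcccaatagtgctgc
Rps18: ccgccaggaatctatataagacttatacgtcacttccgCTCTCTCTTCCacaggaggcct
Rpl27a: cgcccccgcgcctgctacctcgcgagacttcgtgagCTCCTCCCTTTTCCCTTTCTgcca
Rpl11: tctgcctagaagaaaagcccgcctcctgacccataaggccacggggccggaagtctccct
Rplp0: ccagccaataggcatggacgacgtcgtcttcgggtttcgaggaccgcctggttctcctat

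The run was 10 bases long in Rps6, 7 in Rps21, 11 in Rps18 and 20 in Rpl27a, and Rpl11 and Rplp0 had none by this definition at the annotated start. It was found in 28 of the 61 member promoters (45.9%) and in 18.5% of the 27025 promoters of all genes, 1 per gene. In the window from 250 bases before to 50 bases from the start on, searched on both strands, the letters CCGGAAG (an Ets-type motif) stood in 39.3% of member promoters and in 9.1% of all promoters. The letters ATGGCG (the core of the YY1 motif) stood in 29.5% and 9.3%, and GGGCGG (the GC box) in 57.4% and 35.9%. TATAAA, the TATA box, stood in 11.5% of member promoters and 14.2% of all. These matches describe the sequences, and the annotated starts may lie some bases away from the starts used in these cells.

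Signals are given as the log2 of the background-corrected intensity minus the 75th percentile of the array, so that 0 is the level of the 75th percentile and a difference of 1 is a factor of 2. The 75th percentile lay between 882 and 1024 intensity units, between 59.5% and 64.6% of probes were well above background, and 0 spots were saturated. The software called 458 spots of HZ replicate 4 non-uniform, and 2 to 25 spots of each other array. The Lpcat1 probe differed by -0.037 (SE 0.11) and did not separate the labels. Where this probe lies relative to the deletion was not checked, so its signal does not test the labels. KO arrays lay in slide row 1 and HZ arrays in slide row 2 of the same slide, so that position and genotype cannot be told apart, and the replicate number is the slide column.

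Of the 81 genes, 78 were well above background on all 8 arrays. The exceptions were Rpl39l, on 0 arrays, Rpl10l, on 5, and Rpl37, on 6. The first of these could not be tested, which left 80 genes, 31 of the 40S and 49 of the 60S subunit. The array holds 140 probes for the 81 genes, 1 probe for 37 genes and up to 5 for Rpl39. Of the brightest probes, 35 were printed in 10 spots and 46 in 1 spot. Over the array 300 probes were printed in 10 spots. The mean of 10 spots averages out the error of a single spot, and the median SD between arrays of a group was 0.11 over the members in 10 spots and 0.17 over those in 1 spot. The members are therefore also described by the number of spots, a division made after seeing the data.

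The KO and HZ values of the members were part of how this group of genes was chosen, so the comparison is given as a description. Where members past a threshold are counted, the count stands beside the share of all probes and nothing is read from it. The arrays labelled KO had slightly higher values for most ribosomal protein genes. The mean was higher in KO for 62 of 80 members, where 50.5% of all 34303 tested probes were higher. The median difference, KO minus HZ, was 0.11 on the log2 scale, against 0.0023 over all tested probes, and the quartiles of the members were 0.0057 and 0.15. A difference over 1.2-fold in either direction was seen for 5 members, among them Rpl10l, Rpl37, Rplp0 and Rps18, and for 22.8% of all probes. The other 75 members lay within 1.2-fold. With quantile normalization 51 members were higher and the median was 0.043, where all probes had a median of 0.022, and with median scaling it was 72 members and 0.21, where all probes had 0.11.

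**Figure D1:**
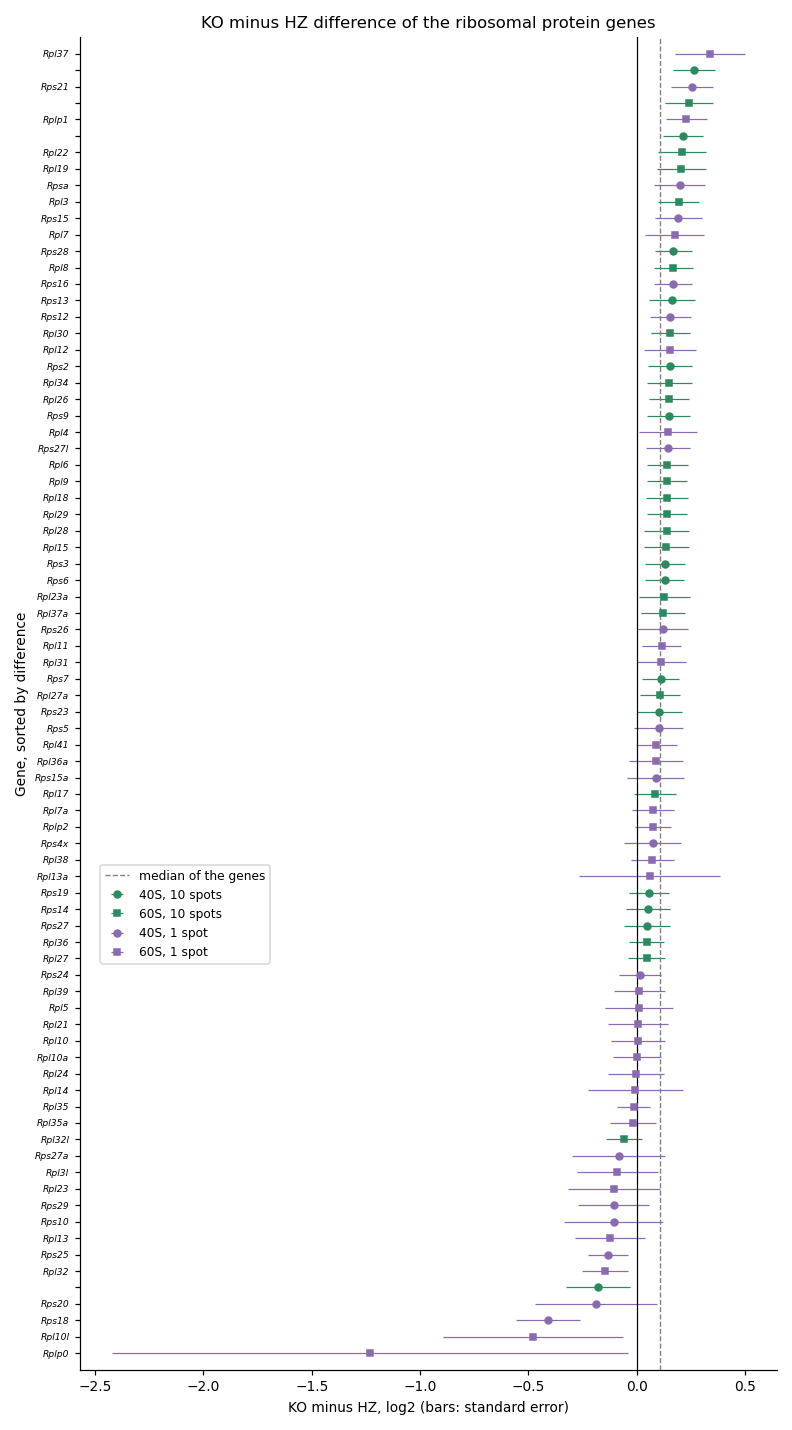
KO minus HZ difference of each of the 80 tested ribosomal protein genes on the log2 scale, sorted, with the standard error from limma as the bar. Circles are 40S and squares 60S genes, green stands for probes in 10 spots and violet for probes in 1 spot, and the dashed line is the median of 0.11. The 10-spot probes lie between -0.18 and 0.26, while the 1-spot probes reach from -1.23 (Rplp0) to 0.34 (Rpl37).

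The 40S and 60S genes had like distributions. Of the 40S genes 24 of 31 were higher in KO, with a median of 0.11, and of the 60S genes 38 of 49, with a median of 0.091. With both subunits together, the median was 0.14 in 10 spots and 0.059 in 1 spot, and the lower median in 1 spot lay mostly in the 60S genes. In 10 spots, 13 of 14 genes of the 40S subunit (median 0.13) and 20 of 21 of the 60S subunit (median 0.14) were higher in KO. In 1 spot, 11 of 17 genes of the 40S subunit (median 0.088) and 18 of 28 of the 60S subunit (median 0.011) were higher. Among the 35 genes in 10 spots the differences had an SD of 0.082 and the median standard error was 0.096. Among the 45 tested genes in 1 spot the SD was 0.24 and the median standard error 0.12.

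The members moved together from array to array, and this shared movement was wider among the HZ arrays than the difference between the group means. Over the 80 genes, the median deviation of a gene from its own mean was -0.077, 0.13, -0.065 and -0.18 on HZ replicates 1 to 4. On KO replicates 1 to 4 it was 0.078, 0.13, 0.0052 and 0.046. HZ replicate 2 therefore stood as high as KO replicate 2, and HZ replicate 4 stood lowest. In HZ replicate 2, 95% of the members were above their own mean, against 48.2% of all tested probes, and in HZ replicate 4 it was 13.8% of the members against 55.5% of all probes. The mean of the array medians was -0.049 ± 0.13 (SD, n = 4) in HZ and 0.065 ± 0.054 (SD, n = 4) in KO, and the groups overlapped. Among the 79 members with a value on every array, HZ replicate 2 was the highest HZ array for 68, and HZ replicate 4 was the lowest for 52.

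**Figure D2:**
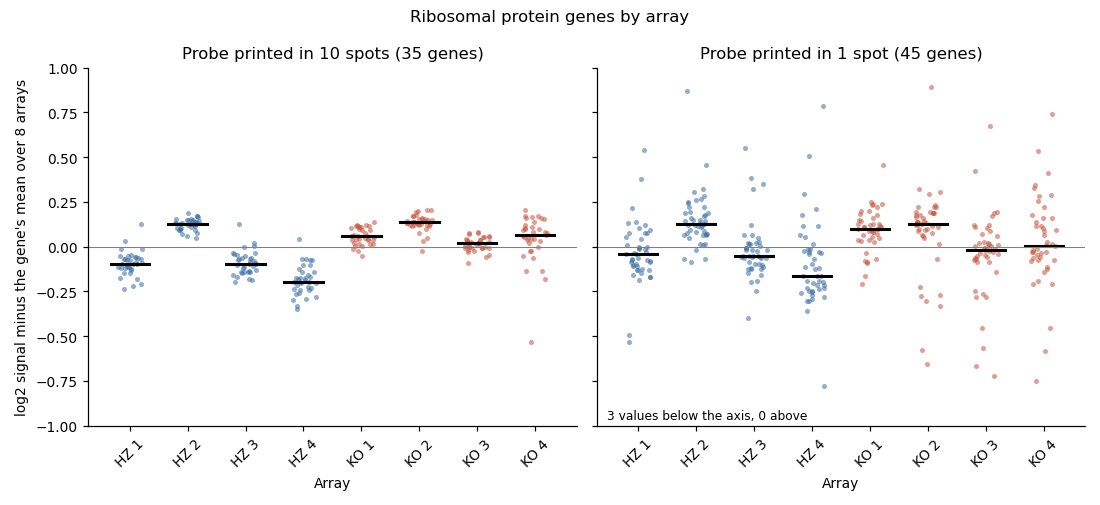
Deviation of each ribosomal protein gene from its own mean over the 8 arrays, on the log2 scale, for the 35 genes in 10 spots on the left and the 45 tested genes in 1 spot on the right. Each point is a gene, the black bars are medians, and HZ is blue and KO red. HZ replicate 2 and KO replicate 2 are high in both panels and HZ replicate 4 is lowest, and 3 values of 1-spot genes lie below the axis.

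Arrays with the same replicate number were also compared. The median difference of KO from HZ over the members was 0.16 for number 1, 0.011 for number 2, 0.088 for number 3 and 0.23 for number 4. KO was higher than HZ for 28 members in all 4 pairs, and this was so for 14.8% of all tested probes, while 2 members, Rps18 and Rps25, were lower in all 4, as were 10.4% of all probes. Leaving out HZ replicate 2 gave a median difference of 0.17 over the members, and leaving out HZ replicate 4 gave 0.052, so that its size rested on single arrays while its sign did not change in any of the 8 sets with 1 array left out.

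Levels of other cell types moved between the arrays too. The rod list had summed levels of 1239 to 1556 in HZ and 1202 to 1382 in KO, in units of the 75th percentile, with 13 of 16 genes lower and a median difference of -0.12. Markers of the retinal pigment epithelium (RPE) summed to 18.5 to 46.2 in HZ and 8.75 to 16.3 in KO, with 18 of 18 tested genes lower, a median of -1.56, and Cldn19 not well above background on any array. Microglia markers summed to 4.34 to 8.45 in HZ and 6.21 to 10.6 in KO, with the group mean of 13 of 13 higher in KO and a median of 0.76. The 8.45 was HZ replicate 4, above KO replicates 2 to 4 (8.16, 6.21 and 6.60). For replicate number 4 only 2 of the 13 genes were higher in KO. Markers of proliferating progenitors were highest in HZ replicate 2 (49.7, against 26.3 to 31.9 on the other HZ arrays) and, within KO, in KO replicate 2 (36.8, against 24.4 to 29.2), the arrays on which the ribosomal protein genes also stood high. Of the progenitor genes, 6 of 15 tested were higher in KO and the median was -0.012. Muller glia markers summed to 30.8 to 38.8 in HZ and 20.6 to 37.5 in KO, also with the highest value of each group on replicate 2, and 8 of 10 genes were lower with a median of -0.29. Rlbp1 was on both the RPE and the Muller glia list, so these lists are not separate. The part of these cells in the differences of the ribosomal protein genes was not tested, and fewer cells of a type and less RNA per cell cannot be told apart.

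Rps21, a small protein of the 40S subunit, read 5.65, 5.80, 5.59 and 5.59 in HZ and 5.91, 5.88, 5.78 and 6.08 in KO, a difference of 0.25 (SE 0.096). HZ replicate 2 lay above the lowest KO array, and with normexp background correction the difference of Rps21 was 0.012.

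Limma placed 4 members past an unadjusted p of 0.05 in the higher direction, 5% of members against 4.69% of all probes, and 1 member in the lower direction, against 3.48%. In either direction 5 members passed, against 8.17% of all probes. Without HZ replicate 2 it was 27 of the 80 members, against 14.6% of all probes. Among the HZ arrays the members stood highest on HZ replicate 2, so this count is not read as a result about them. Without each other array in turn it was 1 to 4 members, against 5.88% to 7.24%. With the methods' t-test 7 members passed the unadjusted threshold, against 9.14% of all probes. At an adjusted p under 0.05 over all probes limma gave 0, for members and for all 34303 probes at a fold over 1.2. With the looser limits, 1.5-fold and 0.5 for the adjusted p, it was 0 members, against 1.04% of all probes.

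Genes with roles in decoding and in signaling differed by -0.082 (Rps27a) to 0.20 (Rpsa). Rps2, Rps3, Rps15 and Rps23, whose proteins line the mRNA entry or the decoding site, differed by 0.10 (Rps23) to 0.19 (Rps15), all 4 higher in KO. Rps6, the substrate of the S6 kinases, read 4.86, 5.13, 4.92 and 4.97 in HZ and 5.10, 5.19, 5.01 and 5.10 in KO, a difference of 0.13 (SE 0.090). HZ replicate 2 lay above 3 of the 4 KO arrays. Rpsa, also known as the laminin receptor, read 5.05, 5.28, 5.0 and 4.76 in HZ and 5.27, 5.26, 5.14 and 5.21 in KO, with a difference of 0.20 (SE 0.12) for the brightest probe and 0.20 (SE 0.092) for the other. Here HZ replicate 2 was the highest of all 8 arrays. Rps27a, which is made as a fusion with ubiquitin, read 6.45, 6.62, 6.46 and 6.41 in HZ and 6.50, 6.66, 5.72 and 6.73 in KO, a difference of -0.082 (SE 0.21) that was 0.15 without KO replicate 3, its lowest array.

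**Figure D3:**
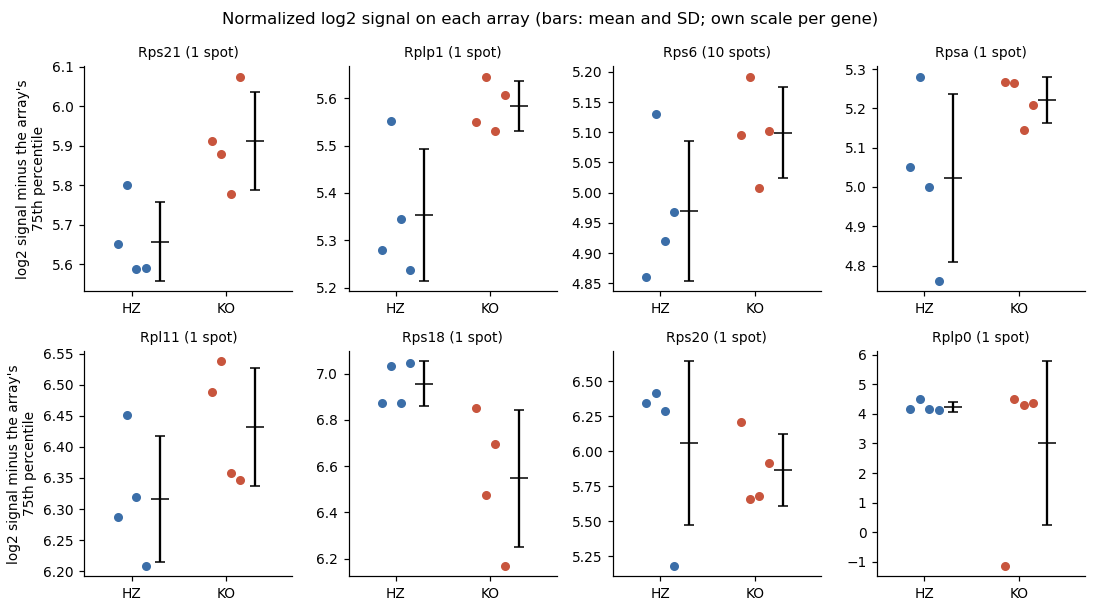
Normalized log2 signal of 8 ribosomal protein genes on the 4 HZ arrays (blue) and 4 KO arrays (red), replicates 1 to 4 from left to right, each gene on its own vertical scale that does not start at 0. Black marks are the mean and the SD of each group. In the first 5 genes HZ replicate 2 is the highest HZ array and lies at or near the KO level, Rps18 lies lower on all KO arrays, and Rps20 and Rplp0 each hold 1 array far below the others.

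In the large subunit, the P stalk recruits the elongation factors and is made of Rplp0 with copies of Rplp1 and Rplp2. Rplp1 read 5.28, 5.55, 5.34 and 5.24 in HZ and 5.55, 5.65, 5.53 and 5.61 in KO, a difference of 0.23 (SE 0.093), and its second probe, in 10 spots, gave 0.22 (SE 0.099). Both probes of Rplp1 thus read alike. Rplp2 differed by 0.074 (SE 0.085), and Rpl12 at the base of the stalk by 0.15 (SE 0.12). Rplp0 has 1 probe in 1 spot, and read 4.16, 4.49, 4.17 and 4.13 in HZ and -1.14, 4.51, 4.29 and 4.36 in KO. The first KO array was far below the other 7, with an intensity of 407 units against 15404 to 22970. The difference of -1.23 (SE 1.19) came from this array, and without it the difference was 0.15. Rplp0 is widely used as a reference gene in quantitative PCR.

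Rpl5 and Rpl11 bind the 5S rRNA and, when not built into ribosomes, bind the p53 regulator Mdm2. Rpl11 read 6.29, 6.45, 6.32 and 6.21 in HZ and 6.49, 6.54, 6.36 and 6.35 in KO, a difference of 0.12 (SE 0.090). Rpl5 read 3.55, 3.81, 3.70 and 3.63 in HZ and 3.90, 3.81, 3.79 and 3.22 in KO, a difference of 0.0099 (SE 0.16) with KO replicate 4 lowest. Of the 8 genes listed for the exit tunnel, 7 were higher in KO, from Rpl35 at -0.015 to Rpl22 at 0.21. Rpl37 had the highest difference of all, 0.34 (SE 0.16), on a probe that was well above background on only 2 HZ arrays and 4 KO arrays, at -5.61 to -5.13 in HZ and -5.21 to -4.58 in KO.

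Most genes at the low end were on single spots, while the lowest member in 10 spots was at -0.18. Rps18 was the only member whose groups did not overlap in the lower direction, as 2.14% of all probes did, and 0 members lay without overlap in the higher direction, as 4.19% of all probes did. It read 6.87, 7.03, 6.87 and 7.04 in HZ and 6.85, 6.48, 6.70 and 6.17 in KO, a difference of -0.41 (SE 0.15). The 2 other probes of Rps18, each in 10 spots, read 0.16 (SE 0.093) and 0.14 (SE 0.098), so that the gene has no settled direction on this array. The mean of its 3 probes differed by -0.038.

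Rps20 read 6.34, 6.41, 6.28 and 5.18 in HZ and 6.21, 5.66, 5.68 and 5.91 in KO, a difference of -0.19 (SE 0.28) that was -0.48 without HZ replicate 4, its lowest array.

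The dimmer probes of the same genes, on the same RNA and arrays, are described here too. The 59 dimmer probes had a median difference of 0.15, and 50 of them were higher in KO. Of 44 genes with several tested probes, all probes were higher for 30, all were lower for 3, and 11 genes had probes of both signs. Over all 139 tested member probes, those in 10 spots lay between -0.18 and 0.26, with 55 of 59 higher and a median of 0.14, and those in 1 spot between -1.23 and 1.13, with 57 of 80 higher and a median of 0.090. The farthest dimmer probes were those of Rps24 (NM_207635) and Rpl13, both chosen for this text after their values were seen. The Rps24 probe read 4.55, 3.72, 5.65 and 6.45 in HZ and 6.43, 6.28, 6.11 and 6.08 in KO, a difference of 1.13 (SE 0.52), where the brightest probe of Rps24 gave 0.015 (SE 0.095). The 2 accessions belong to different transcripts of Rps24, and the spread within HZ on the dimmer probe was wider than the difference. The third probe of Rpl13 read 1.49, 1.14, 1.09 and 0.63 in HZ and 0.32, 0.69, 0.082 and -0.19 in KO, a difference of -0.86 (SE 0.23), while the brightest probe of Rpl13, in 1 spot, gave -0.12 (SE 0.16) and the 10-spot probe gave 0.12 (SE 0.087). Ribosomal protein genes have left many processed pseudogenes in the genome, and which transcripts each probe binds was not analysed here.

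**Figure D4:**
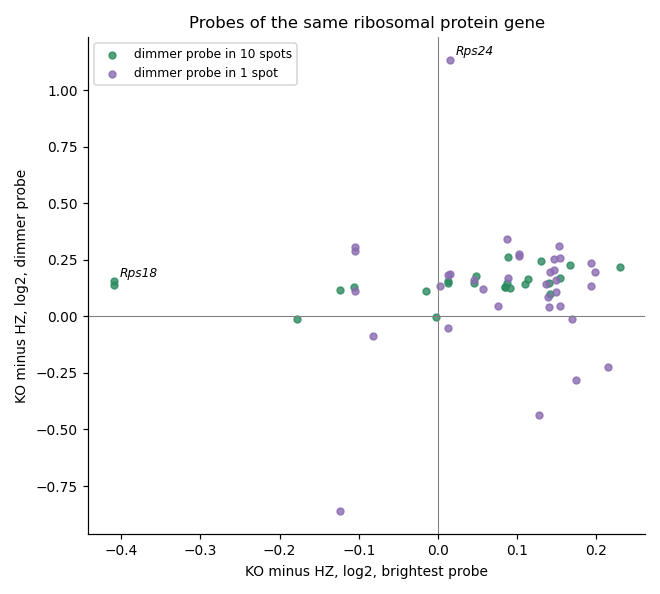
KO minus HZ difference of the 59 dimmer probes (vertical axis) against that of the brightest probe of the same gene (horizontal axis), both on the log2 scale. Green points are dimmer probes in 10 spots and violet points are those in 1 spot. For Rps18, at the left, the 2 dimmer probes in 10 spots lie at 0.14 and 0.16, and the points far from the rest, Rps24 and Rpl13, are in 1 spot.

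Members whose symbol ends in l are named after another member. Rpl10l and Rpl39l are known from testis, and Rpl3l from heart and skeletal muscle. Rpl39l was not well above background on any array and has no difference to report. Rpl10l read -6.14, -5.28, -5.22 and -4.82 in HZ and -6.84, -5.28, -6.06 and -5.19 in KO, near the background, with a difference of -0.48 (SE 0.41), while Rpl10 differed by 0.0052 (SE 0.12). Rpl3l read between -1.02 and -0.65 in HZ and between -1.45 and -0.62 in KO, a difference of -0.089 (SE 0.19), and Rpl3 differed by 0.19 (SE 0.096). Rps27l, a p53 target, differed by 0.15 (SE 0.10) and Rps27 by 0.047 (SE 0.11). Rpl32l differed by -0.060 (SE 0.082) and Rpl32 by -0.15 (SE 0.10), where HZ replicate 3 of Rpl32 was at 5.74 and the other 7 arrays between 5.27 and 5.41. Rpl39 differed by 0.013 (SE 0.12) on its brightest probe, and its sign changed with the processing, to -0.25 with normexp background correction and -0.061 with quantile normalization, while median scaling gave 0.12.

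Genes outside the rule were compared with limma, with p-values adjusted over all 34303 probes. Of 7 other ribosomal genes, among them Fau (a fusion with a ubiquitin-like protein), Rack1 and Rps3a1 of the small subunit and Rpl36al, all 7 were higher in KO and the median was 0.13. An unadjusted p of 0.05 was passed by 0 of them, against 8.17% of all probes. The differences reached from Fau at 0.052 (SE 0.13, limma adjusted p = 0.913) to Rpl7l1, a ribosome assembly factor, at 0.17 (SE 0.10, limma adjusted p = 0.682). On the array medians these genes stood at -0.088, 0.14, -0.077 and -0.22 in HZ and 0.035, 0.14, -0.0018 and 0.030 in KO, the same order of arrays as the members within HZ.

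The proteins of the mitochondrial ribosome, which the rule leaves out, had a like distribution. Of 78 genes 69 were higher in KO, with a median of 0.11. An unadjusted p of 0.05 was passed by 4 (Mrpl1, Mrpl36, Mrpl50 and Mrpl57), all higher, against 4.69% of all probes in that direction. Without overlap in the higher direction lay 4 of the 78, against 4.19% of all probes. Mrpl36 read 2.05, 1.68, 1.98 and 1.73 in HZ and 2.19, 2.34, 2.14 and 2.31 in KO, without overlap, a difference of 0.38 (SE 0.11, limma adjusted p = 0.459). Mrpl21 was the lowest, at -0.17 (SE 0.083, limma adjusted p = 0.638), and was at 0.014 with normexp background correction. On HZ replicates 1 to 4 the median deviation was -0.010, 0.11, -0.092 and -0.15, again highest on replicate 2 and lowest on replicate 4. Among 32 proteasome genes, 24 were higher and the median was 0.075. Psmc2 was highest at 0.49 (SE 0.32, limma adjusted p = 0.705), with 2.68 on HZ replicate 1 and 3.88 to 4.48 on the other arrays. Psmd14 was lowest at -0.15 (SE 0.19, limma adjusted p = 0.829), and the mean of its probes differed by -0.026.

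**Figure D5:**
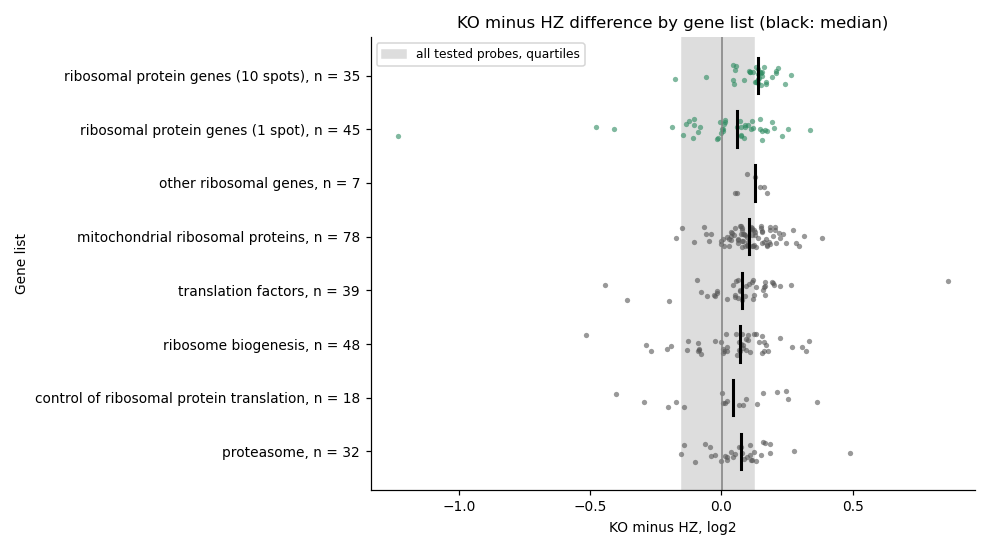
KO minus HZ differences on the log2 scale for the ribosomal protein genes (green, by number of spots) and 6 other gene lists (grey), each point a gene and the black bars medians. The shaded band holds the quartiles of all tested probes, -0.15 to 0.12, and the grey line their median of 0.0023. The medians of all 8 rows lie to the right of that line, from 0.043 to 0.14.

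Ribosome biogenesis genes, which make and process rRNA and assemble the subunits, were higher in KO for 34 of 48, with a median of 0.069. Of these 4 passed an unadjusted p of 0.05, all higher, against 4.69% of all probes in that direction, and 0 passed after adjustment. Polr1a, the large subunit of RNA polymerase I, had the highest difference at 0.33 (SE 0.13, limma adjusted p = 0.588), from 1.39, 1.29, 1.27 and 1.57 in HZ to 1.60, 1.51, 1.71 and 2.04 in KO. With normexp background correction it was 0.059. The nucleolar proteins Nolc1 and Ncl differed by 0.32 (SE 0.11, limma adjusted p = 0.531) and 0.22 (SE 0.096, limma adjusted p = 0.608). Rrn3, the initiation factor of RNA polymerase I, read 2.24, 2.25, 2.26 and 2.25 in HZ and 2.45, -0.54, 2.46 and 2.56 in KO. Its difference of -0.52 (SE 0.65, limma adjusted p = 0.829) came from KO replicate 2 and was 0.24 without it. Rrn3 and Rplp0 thus share a pattern, a single spot far down on 1 KO array, but not the array.

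Translation factors were higher for 29 of 39, with a median of 0.080. Past an unadjusted p of 0.05 were 2 (Eif3g and Eif4b), both higher, against 4.69% of all probes in that direction. Without overlap in the higher direction lay 2 of the 39, against 4.19% of all probes. Eif4b, which helps unwind mRNA for initiation, read 3.21, 3.38, 3.30 and 3.20 in HZ and 3.44, 3.67, 3.59 and 3.44 in KO, without overlap, a difference of 0.26 (SE 0.091, limma adjusted p = 0.532). Eif2s3x had the highest difference, 0.86 (SE 0.93, limma adjusted p = 0.801), with values of 1.25, 1.35 and 1.87 on HZ replicate 4, KO replicate 1 and KO replicate 4 and between -1.44 and -1.23 on the other 5 arrays. This division does not follow the genotype, and the mean of the Eif2s3x probes differed by 0.33. Eif5a was lowest, at -0.44 (SE 0.29, limma adjusted p = 0.707), and the mean of its probes differed by -0.087.

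Of 18 genes for the control of ribosomal protein translation, 13 were higher and the median was 0.043. Larp1, which binds TOP mRNAs, read 4.06, 3.98, 4.16 and 3.94 in HZ and 4.26, 4.15, 4.33 and 4.38 in KO, a difference of 0.25 (SE 0.090, limma adjusted p = 0.555). Eif4ebp1, a translation inhibitor that mTOR switches off, differed by 0.36 (SE 0.14, limma adjusted p = 0.585). Mtor itself differed by 0.0056 (SE 0.097, limma adjusted p = 0.990) and the S6 kinase Rps6kb1 by 0.0016 (SE 0.092, limma adjusted p = 0.996). Myc was lowest at -0.40 (SE 0.45, limma adjusted p = 0.807), on a probe that was well above background on 3 arrays of each group. Without HZ replicate 4 the Myc difference was 0.011.

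Other probes printed in 10 spots had a like shift and a like order of arrays. Of the 235 tested probes in 10 spots that were not members, 195 were higher in KO, with a median of 0.12. Their median deviations were -0.080, 0.14, -0.086 and -0.22 on HZ replicates 1 to 4 and 0.063, 0.12, 0.012 and 0.043 on KO replicates 1 to 4. Of these probes 68 had a gene symbol, with 50 higher and a median of 0.097. Members were told apart by symbol alone, so probes without a symbol may still bind ribosomal protein transcripts, which was not analysed. Among other probes within the brightest 5% of all, 1054 of 1615 were higher and the median was 0.056. On HZ replicates 1 to 4 their median deviations were -0.017, 0.026, -0.051 and -0.052. Among other probes at least as bright as the median member, 252 of 455 were higher and the median was 0.024. Their median deviations were -0.013, -0.0070, -0.031 and 0.038 on HZ replicates 1 to 4, which is not the order of arrays seen in the members. The difference between the members and these probes was not tested, so the shift is not called particular to the ribosomal protein genes.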

How the data were processed

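Total RNA of CD73-isolated photoreceptor cells was measured on single-color arrays, and samples were grouped by their labels into 4 HZ and 4 KO. Per the labels, Agilent Feature Extraction 10.7.1.1 quantified the scans, and the authors deposited its background-corrected intensity for each spot with flags for outliers and for signal well above background. A second deposited table holds the authors' log2 values from GeneSpring (75 percentile shift). Its 53489 probes were found to be centred on their median over the 8 arrays, and it served as an alternative.

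For each array, the 75th percentile of its 59305 non-control spots was subtracted on the log2 scale. Outlier spots were removed, which dropped KO replicate 3 from the brightest Rpl13 probe, and replicate spots were averaged within each probe. Probes were kept with a signal well above background on 4 or more arrays and 3 or more values per group, which left 34303 of 56605. RefSeq accessions were turned into symbols with the GRCm38.p6 gene table, which named 32994 probes. For a gene with several promoters, the promoter nearest to the gene start in this table was kept. The number of arrays limits the precision.

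KO was set against HZ in a two-sided test with limma 3.58.1 (lmFit, eBayes; R 4.3.3), adjusted by Benjamini-Hochberg over every tested probe. Both pairs of thresholds in the methods were used, a fold of 1.2 with an adjusted p of 0.05, and 1.5 with 0.5. The script was tested on simulated data. Tables and plots were made with Python 3.11.15, pandas 2.3.3 and matplotlib 3.10.9. The members, the gene lists (other ribosomal genes, ribosome biogenesis, translation factors, control of ribosomal protein translation, proteasome, mitochondrial ribosome and 5 lists of cell markers) and the tests were chosen with earlier results of these data known. Named genes were the 5 members at each end of the differences, members without overlap of the groups, members with a known role or a symbol ending in l, members that could not be tested, the extremes of each list, Lpcat1 and the RPE marker Rpe65. Some genes that this rule takes in are not reported here. Others named in the text were chosen after their values were seen.

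Whether the replicate number (the slide column) pairs the arrays was checked on residuals. Same-numbered HZ and KO arrays had r of 0.172 to 0.337 across probes, over 0.1 in 4 of 4 pairs. Arrays of other numbers had r of -0.337 to 0.117. The residuals were centred within each group, which ties these r to each other. The numbers were treated as pairing the arrays, and what same-numbered arrays share besides the slide column was not tested. The standard errors and adjusted p-values given for genes come from the limma fit without this pairing.

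Alternatives were other normalizations and background corrections, the authors' values, other filters on dim probes, other variance models, a replicate block, the methods' t-test, other member lists, averaging over all probes of a gene and each array left out.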

Additional observations from a re-analysis of the deposited data

Results flagged for a closer look

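In 80 groups of 4 arrays, of the named genes and of the median levels of the members, Dixon's test for an array apart from the rest of its group passed in 9. Chance gives about 1 in 20, but the named genes include those at the ends of the differences, which 1 array can set, so the number is not compared with chance. Rplp0 was apart on KO replicate 1, at -1.14 against 4.29 to 4.51 on the other KO arrays, and on HZ replicate 2, at 4.49 against 4.13 to 4.17. Rrn3 was apart on KO replicate 2, at -0.54 against 2.45 to 2.56. Eif2s3x was apart on HZ replicate 4, at 1.25 against -1.44 to -1.28, and its KO arrays held both levels. Rps20 was apart on HZ replicate 4, at 5.18 against 6.28 to 6.41. Rpl5 was apart on KO replicate 4, at 3.22 against 3.79 to 3.90. Rpl10 was apart on KO replicate 2, at 5.99 against 5.73 to 5.77. Rpl32 was apart on HZ replicate 3, at 5.74 against 5.36 to 5.41. Rpl39l was apart on KO replicate 3, at -6.47 against -7.91 to -7.74, where no array was well above background. Over all members, 7 of 70 groups on probes in 10 spots and 11 of 89 groups on probes in 1 spot passed the same test. The causes of these single arrays were not tested.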

How the results depend on the processing

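Under the alternatives run, the median difference of the members stayed above 0, at 0.043 (quantile normalization) to 0.21 (median scaling). The number of members higher in KO was 57 to 65 with 1 array left out and 51 to 72 over the scalings and background corrections. On probes in 10 spots alone it was 33, and in 1 spot alone 29, since fewer genes were counted. Members past an unadjusted p of 0.05, 5 as reported, numbered 1 with median scaling, 2 with quantile normalization, 3 with no filter on dim probes, 9 with trend and robust eBayes, and 1 to 27 with 1 array left out. For all probes, 1741 passed that threshold with median scaling, 2799 with quantile normalization, 2874 with no filter, 3062 with trend and robust eBayes, 2018 to 4997 with 1 array left out and 2803 as reported. Past 1.2-fold with adjusted p under 0.05 there were 1 with median scaling, 2 with quantile normalization, 4 with normexp, 3 with trend and robust eBayes and 2 with the methods' t-test, where the reported count was 0. The 357 probes past 1.5-fold with adjusted p under 0.5 became 95 with median scaling, 41 with no filter, and 0 to 1734 with 1 array left out. Median scaling moved the medians of ribosome biogenesis to 0.18, of translation factors to 0.20 and of the control genes to 0.15, with all probes at 0.11. The causes of these changes were not tested.

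With the replicate number as a block, which the pairing allows, 1167 probes passed the looser thresholds in place of 357. Past an unadjusted p of 0.05 in limma there were 4077 probes with the block in place of 2803, and 6 members in place of 5. The block moved no count but that of the looser thresholds by over 1.5 times. Of 627 values of 35 named genes under the alternatives, 10 moved beyond the spread between replicates and 36, in 14 genes, had the other sign. The number of arrays limits what can be seen, and single spots limit Rplp0, Rps18, Rps20 and Rrn3.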
